A study of Mus musculus with 49 samples.

Results

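Surface markers of B cell maturation or activation were followed at the RNA level: Fcer2a (CD23), Cr2 (CD21), Cd40, Cd83 and Cd86. Their probe sets were those that the platform annotation pairs with 1 of these genes and no other. There were 7 such probe sets, the same on both platforms, of 9977 in the U74Av2 table and 12588 in the U74A table. They stand for 5 of the 7417 genes read by a probe set of their own on U74Av2 and of 8220 on U74A. Fcer2a was read by 94141_at, Cr2 by 102289_r_at, Cd40 by 92962_at, Cd83 by 103040_at and 99434_at, and Cd86 by 102830_at and 102831_s_at.

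CD23 is the low-affinity receptor for IgE, and CD21 is a receptor for fragments of complement C3 that is part of a co-receptor of the B cell antigen receptor (BCR). CD40 is a receptor of the TNF receptor family that activates NF-kB when T cells present its ligand. CD83 keeps MHC class II and CD86 at the cell surface by opposing the ubiquitin ligase MARCH1, and CD86 is a ligand of CD28 and CTLA-4 on T cells. On protein level, CD23 and CD21 are known to be absent or low on newly formed immature B cells and to appear during the transitional stages, whereas CD83 and CD86 are known to rise on activation.

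The study hybridised RNA from mouse B lineage cells to 49 Affymetrix arrays in 14 groups, to ask what changes when immature B cells lose the BCR or its basal signals. Ctrl Mhi cells were marrow cells of mice in which a floxed heavy chain and a light chain were knocked in. The sample labels spell their genotype B1-8h/3-83(kappa), and the paper names the floxed allele B1-8f. Ctrl Mhi cells were expanded in IL-7, recultured for 2 days without IL-7 but with interferon-(alpha)(beta), and sorted as IgM high. Cre Mhi and Cre Mlo cells also carried Mx-Cre, an interferon-inducible Cre that deletes that heavy chain, and were sorted from the same kind of culture as IgM high and IgM low (4 arrays for each of these 3 groups). All 3 groups received interferon, and Cre Mhi cells are those that still displayed the receptor when sorted. By a PCR assay of the paper, part of the Cre Mhi cells had already deleted the floxed allele. The paper describes their gene expression as intermediate between Ctrl Mhi and Cre Mlo cells. B6 Mneg cells were IgM-negative B220-positive cells of IL-7 cultures of C57BL/6 marrow (3 arrays). FxD pre-B cells and FxE immature B cells were sorted fresh from Balb/c marrow (3 arrays each), and their RNA was amplified in 2 rounds. FxE Ctrl (4 arrays) and FxE HA (6 arrays) were marrow immature B cells of Bcl-2 transgenic mice cultured in medium or with herbimycin A, an inhibitor of tyrosine kinases, for 24 or 48 h. GFPneg and GFPpos cells (3 arrays each) carried an anti-hen egg lysozyme (HEL) Ig transgene and a Rag-2-GFP reporter, were expanded in IL-7 and then kept for 1 day without it. GFPneg cells were kept in medium and sorted as GFP-negative, and GFPpos cells were kept with herbimycin A and sorted as GFP-positive. By a figure legend of the study, both were also sorted as IgM positive. The GFP gate changed with the treatment, and gate and drug cannot be told apart. On the U74A arrays (3 per group), HEL Mhi cells were anti-HEL Ig cells expanded in IL-7 and sorted as IgM high and IgD negative to low. HEL Mlo cells were HEL-Ig marrow cells sorted as IgMa low and IgD negative after 5 days with 16 ng/mL IL-7. HEL 48h and BM 48h Ctrl cells carried HEL-Ig and Rag2-GFP, had the same 5 days in IL-7 and then 48 h without it, with 1 µg/mL HEL or none. HEL 48h cells were sorted as GFP-positive and BM 48h Ctrl cells as GFP-negative, so that gate also changed with the treatment.

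Values are array signals in arbitrary units. The 37 U74Av2 arrays had been scaled to a common trimmed mean, and their median signal over all probe sets ran from 346 to 544. A group was taken to be near the floor when the median of its arrays was under 200 units. HEL Mlo arrays, with a median of 21.6 to 26.2 units over all probe sets, were on another scale, and entered no comparison of levels. All 6 measured markers of B cell identity (8 listed) were at 200 units or more on every U74Av2 array, although their summed signal differed between groups, as given with the comparisons. Myeloid markers (12 of 12 listed genes measured) summed to 2779 to 5884 units in the IL-7 culture groups. In the marrow groups they summed to 36462 to 76980.3 in FxD, 66099 to 270382 in FxE, 30364 to 126260 in FxE Ctrl and 30504 to 131145 in FxE HA cells. Erythroid markers stood apart in the same way, at 56737 to 120068 units in FxD and 115097 to 157231 units in FxE cells against 702 to 1567 in the IL-7 culture groups. In these bulk samples fewer cells of a type and less RNA per cell cannot be told apart.

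The promoters of Fcer2a and Cr2, the members that the promoter table lists, are shown so that the letters before both genes can be set side by side. They are the bases before the annotated gene in the RefSeq promoter table (GRCm38.p6, both on the minus strand, printed 5′ to 3′ along the gene). Of the 3 windows listed for Fcer2a, the one nearest to the annotated start of the gene was searched, and Cr2 has 1. Capitals mark the only matches, on either strand, to the 5 motifs searched: TGANTCA (AP-1) in Fcer2a and GTGGGAA (RBPJ, the DNA-binding partner of Notch) in Cr2.
Fcer2a, chr8:3694175-3694424: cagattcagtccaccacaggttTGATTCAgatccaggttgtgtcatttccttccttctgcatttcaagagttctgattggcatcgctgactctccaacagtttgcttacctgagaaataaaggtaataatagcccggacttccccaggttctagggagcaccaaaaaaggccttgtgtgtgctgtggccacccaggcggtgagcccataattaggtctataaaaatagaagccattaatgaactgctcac
Cr2, chr1:195176881-195176969: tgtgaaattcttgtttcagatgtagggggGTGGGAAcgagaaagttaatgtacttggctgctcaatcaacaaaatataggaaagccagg
Over the 32851 windows of 300 bases in that table, TGANTCA was found in 7.81% and GTGGGAA in 6.38%. Neither window held ATGCAAAT (octamer), GTAAACA (FoxO) or GGGRNWYYCC (NF-kB consensus), which were found in 1.74%, 3.65% and 4.51% of all windows. In these letters N is any base, R is A or G, W is A or T and Y is C or T. Looser forms of the NF-kB motif were not searched. A match is a description of letters and not of a bound site. Fcer2a lies on chromosome 8 from 3680280 to 3694174, Cr2 on chromosome 1 from 195136811 to 195176880, Cd40 on chromosome 2 from 165055614 to 165071654, Cd83 on chromosome 13 from 43785112 to 43803133 and Cd86 on chromosome 16 from 36568956 to 36666158.

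Across the 10 U74Av2 groups, Fcer2a, Cr2, Cd40 and Cd83 by 103040_at had their 4 highest mean levels in the same groups. These were FxE, FxE Ctrl, Ctrl Mhi and Cre Mhi cells, all sorted as IgM positive and untreated with herbimycin A. GFPneg cells were also IgM positive and untreated, and had lower means: 140.8 units for Fcer2a, 47.4 for Cr2, 1336 for Cd40 and 625 for Cd83. Fcer2a had its highest mean in FxE Ctrl cells, at 1628 ± 1138 units (SD, n = 4), and was in Cre Mhi, Ctrl Mhi and FxE cells at 1136 ± 396 (n = 4), 1045 ± 90.0 (n = 4) and 1069 ± 334 (n = 3). By mean log2 signal that was their order, and the ranges of neighbours overlapped. A gap then separated FxE from FxE HA cells, and FxE HA, Cre Mlo, FxD, GFPneg, GFPpos and B6 Mneg cells followed with means from 250.1 down to 87.6 units, again with overlapping neighbours. Fcer2a was near the floor in 6 of the 13 groups on a common scale. Repeated RNA amplification is stated for FxD and FxE cells only, and its part in the order of groups was not tested for any marker.

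Cr2 was near the floor in 12 of 13 groups. Only FxE cells, at 177, 308 and 228 units on their 3 arrays, had a median over 200 units. All arrays of Cre Mlo, B6 Mneg and GFPpos cells were under 20 units, the value to which lower signals were raised before taking logarithms. For Cr2 a difference from these groups is therefore a distance to that floor. It gives a lower bound of the change in signal only, and its size depends on the floor chosen.

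Cd40 was the marker that was never near the floor. Its signal was 7285 ± 551 units in FxE cells (SD, n = 3) and 6415 ± 1192 in FxE Ctrl cells (n = 4), whose ranges overlapped. Ctrl Mhi, Cre Mhi, FxD and Cre Mlo cells formed a second run of overlapping neighbours at 3240.1, 3082, 2350.3 and 2084 units. GFPneg cells were at 1336 ± 174 (n = 3), FxE HA cells at 809 ± 165 (n = 6) and B6 Mneg cells at 411 ± 52.4 (n = 3). The GFPpos arrays, described below, spanned the range from 124 to 1502.

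**Figure D1:**
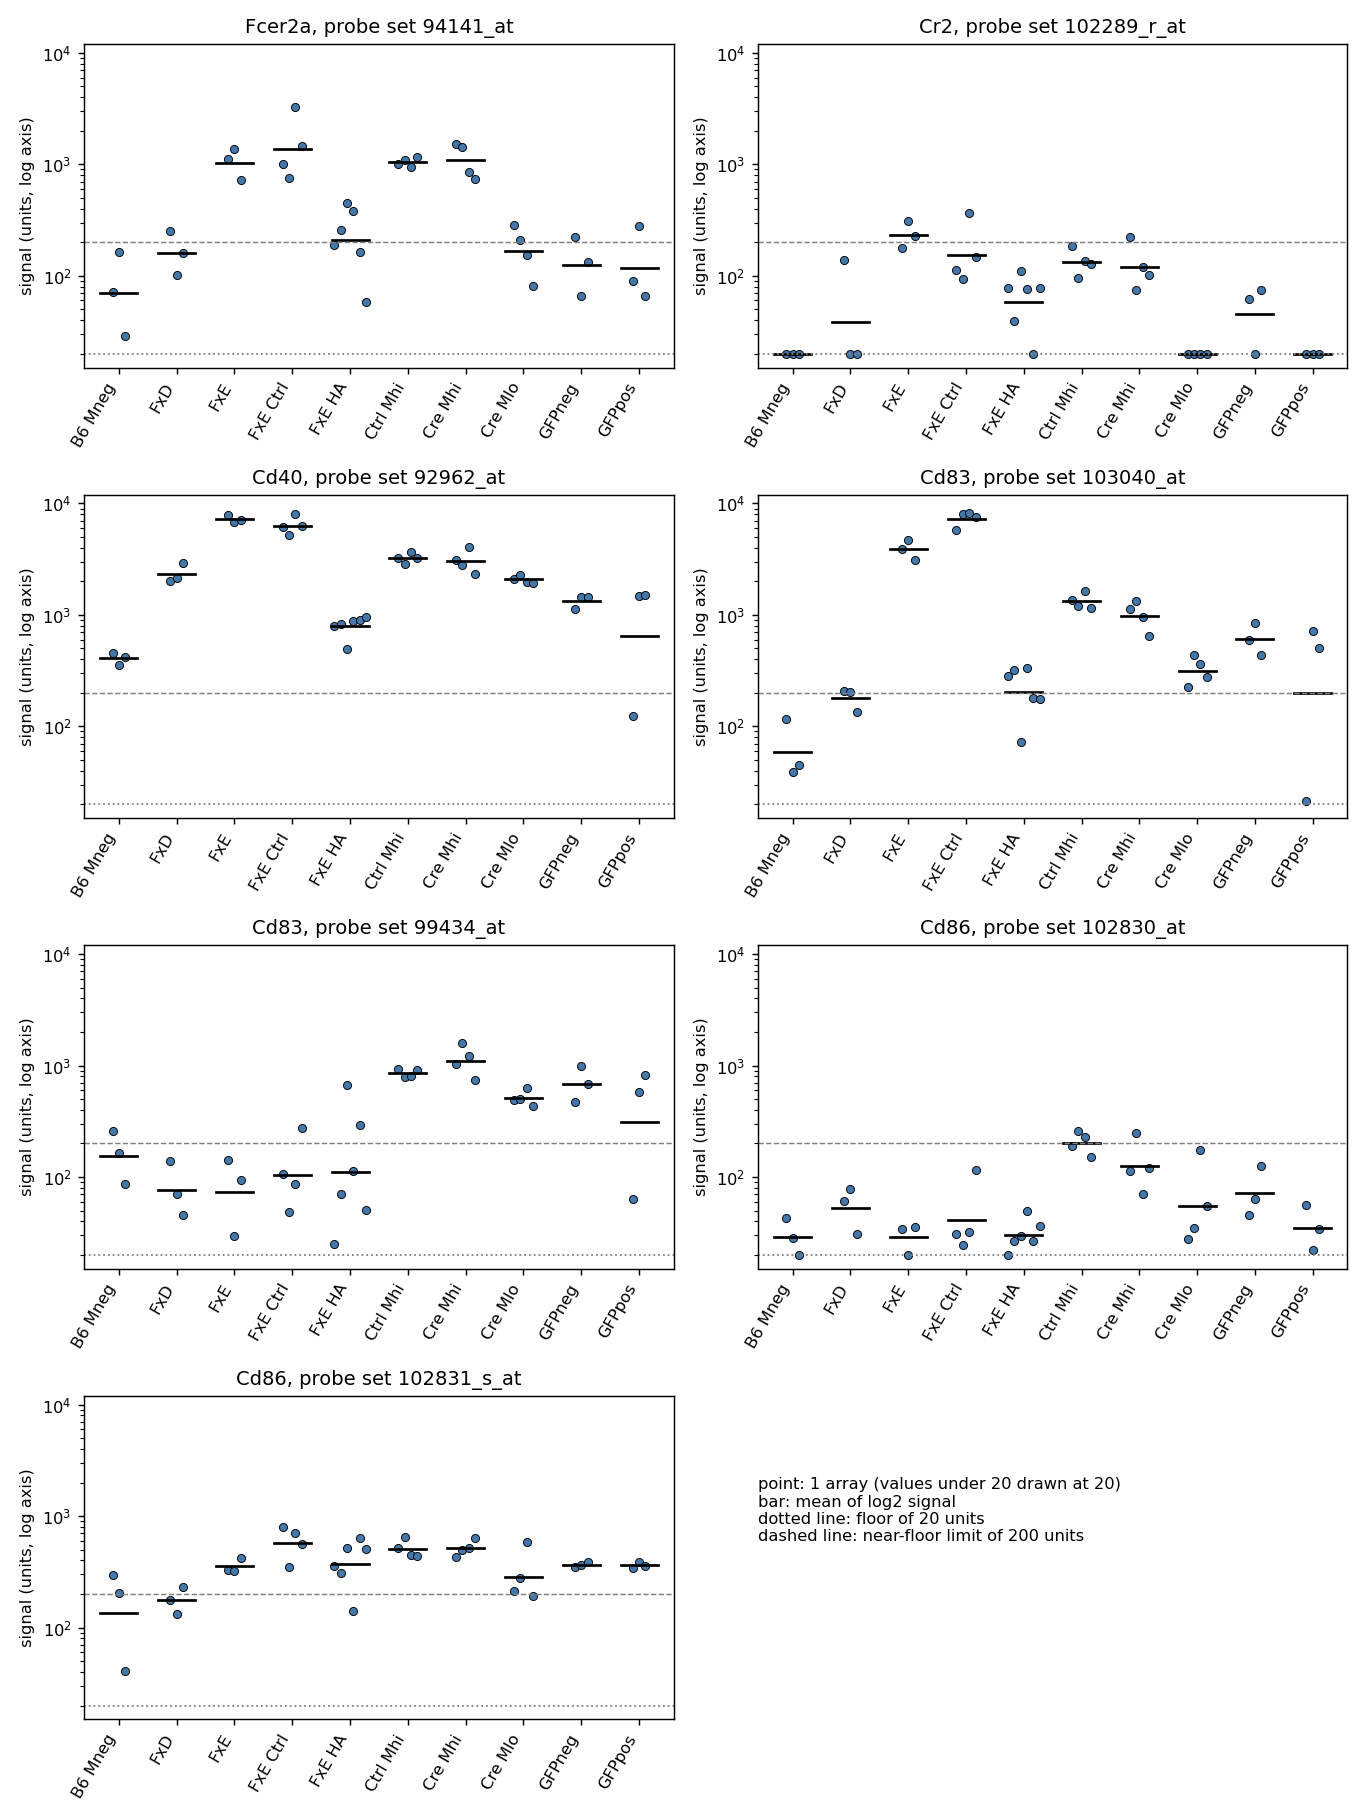
Signal of each member probe set on the 37 U74Av2 arrays by group, on a log axis. Each point is an array, the bar is the mean of log2 signal, the dotted line marks 20 units and the dashed line 200 units. Fcer2a, Cd40 and Cd83 (103040_at) are high in FxE, FxE Ctrl, Ctrl Mhi and Cre Mhi cells, and Cr2 and Cd86 (102830_at) lie mostly under the dashed line.

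Both genes with a pair of probe sets gave discordant readings. Cd83 by 103040_at ran from 7384 ± 1136 units in FxE Ctrl cells (SD, n = 4) and 3920.2 ± 798 in FxE cells (n = 3) to 66.9 ± 43.0 in B6 Mneg cells (n = 3). By 99434_at it was near the floor in FxE cells, at 141, 29.6 and 93.9 units, and in FxE Ctrl cells, where 3 of 4 arrays read 48.1 to 106. The same probe set read 858 ± 70.1 units in Ctrl Mhi cells and 1140.2 ± 359 in Cre Mhi cells (n = 4 each). Within the 6 IL-7 culture groups both gave the same order by mean log2 signal except for the places of Ctrl Mhi and Cre Mhi. In the FxD, FxE, FxE Ctrl and FxE HA groups 99434_at had a median under 200 units in every group. Over the 10 group means of log2 signal their Pearson correlation was -0.0015. The groups share platform and scaling, but not all of the RNA preparation. For FxD and FxE cells the paper states repeated rounds of RNA amplification, which it does not state for the other groups. The part of amplification in this discordance was not tested. The Cd83 probe sets are given apart throughout.

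**Figure D2:**
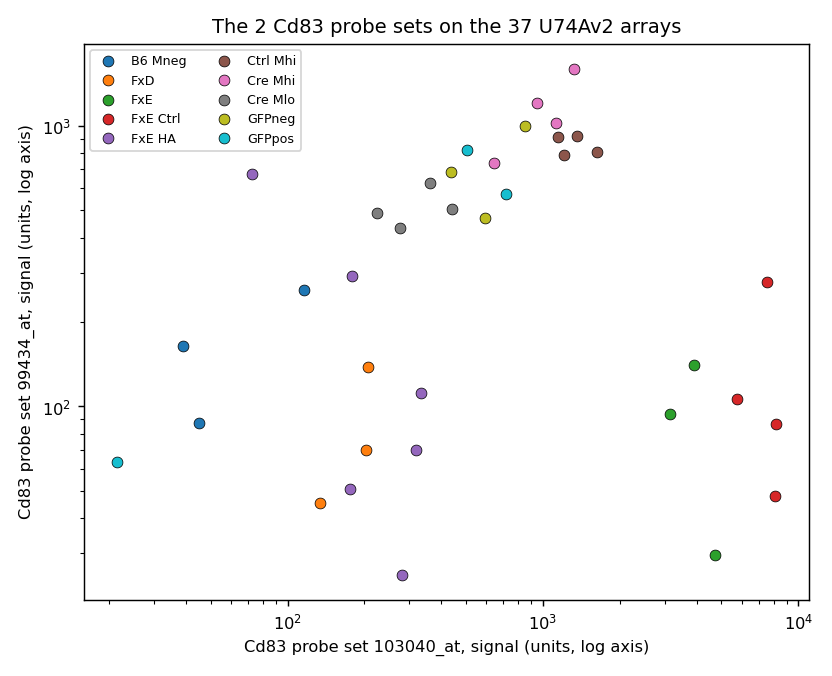
The pair of Cd83 probe sets on the 37 U74Av2 arrays, both axes in signal units on log scales, 1 point per array, coloured by group. The FxE and FxE Ctrl arrays read 3135 units or more by 103040_at and 277 units or fewer by 99434_at, apart from the diagonal along which the IL-7 culture groups lie.

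Cd86 by 102830_at was near the floor in 11 of 13 groups and by 102831_s_at in 1 of 13. By 102831_s_at the levels ran from 603 ± 197 units in FxE Ctrl cells (SD, n = 4) to 181 ± 130.2 in B6 Mneg cells (n = 3), and the ranges of every pair of neighbours overlapped. The Pearson correlation of both over the 10 group means was 0.447.

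The likeness of patterns was described over the 10 group means of log2 signal. Among the members, Fcer2a and Cr2 correlated at r = 0.928 and Cd40 and Cd83 (103040_at) at r = 0.898. Over the 37 arrays the same pairs were at r = 0.816 and 0.897. Cr2 was near the floor in 9 of these 10 groups. Other probe sets were searched among those whose mean over the arrays was 500 units or higher, which leaves out Cr2. Cd40 was most like Ltb, which encodes lymphotoxin beta, at r = 0.964. The next were Fam3c (0.943), H2-Ea (0.934), Tmem230 (0.927) and Ap5s1 (0.921). Among the probe sets searched, Fcer2a was most like Stx4a (0.920), Stom (0.908), Ctss (0.902), Pxk (0.901) and Cd83 by 103040_at (0.893). Cr2 was most like Pkib (0.948), Mfhas1 (0.938), Egr1 (0.935) and Ctsz (0.929). Cd83 by 103040_at was most like Stx4a (0.950), Ly86 (0.935), Naglu (0.933), Fam3c (0.928) and Mfhas1 (0.927). Cd83 by 99434_at was instead most like Sp100 (0.969), Ets1 (0.966), Slc44a4 (0.965), Rasgrp1 (0.960) and Nsf (0.959). The genes most like Cd86 were Strbp (0.924) for 102830_at and Adcy7 (0.975) for 102831_s_at. These values rest on 10 groups and describe likeness only. The part of RNA amplification, stated for FxD and FxE cells only, in these correlations was not tested.

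Loss of the receptor was examined in Cre Mlo cells against Ctrl Mhi cells, and 4 of the 7 probe sets were lower and none higher (limma with Benjamini-Hochberg adjustment over 9977 probe sets, called under an adjusted p of 0.05). Over all probe sets 8.33% were called, and 4.10% were called as lower. The groups did not overlap for 5 of the 7, as for 16.7% of all probe sets. Fcer2a read 288, 211, 152 and 81.1 units on the Cre Mlo arrays and 1001, 1082, 947 and 1151 on the Ctrl Mhi arrays. It was 6.30-fold lower (log2 difference -2.65 ± 0.36 SE, adjusted p = 0.00111), and the groups did not overlap. The fall of the IgE receptor transcript was thus larger than the spread in either group.

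Cr2 read 2.7, 11, 4.5 and 8.3 units in Cre Mlo cells and 184, 95.5, 134 and 128 in Ctrl Mhi cells. With the floor of 20 units the difference was -2.72 ± 0.30 (limma, adjusted p = 0.000291), a lower bound on its size, and with a floor of 100 units the call was lost (-0.42, adjusted p = 0.426). Every Ctrl Mhi array thus lay above every Cre Mlo array, at levels where Cr2 was near the floor in both groups.

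Cd83 by 103040_at read 225, 440.3, 361 and 277 units in Cre Mlo cells and 1356, 1204, 1633 and 1144 in Ctrl Mhi cells, a 4.19-fold fall (-2.07 ± 0.26, limma adjusted p = 0.000608). By 99434_at the groups also did not overlap, at 434 to 626 against 785 to 924 units, and the difference of -0.75 ± 0.21 missed the threshold (adjusted p = 0.0589). It passed with a floor of 100 units, quantile normalization, an intensity trend or a filter on mean signal, and without Cre Mhi replicate 2 or 4 (adjusted p = 0.0225 to 0.0492). Cd40 was lower by less, at 1952 to 2302 units against 2840.4 to 3633 (-0.63 ± 0.17, limma adjusted p = 0.0404). That call was the least stable. It was lost without any of the 4 Ctrl Mhi arrays, any of the 4 Cre Mlo arrays or Cre Mhi replicate 1 or 2, with adjusted p of 0.0523 to 0.0990, while the difference stayed between -0.58 and -0.70.

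Cd86 passed the test by neither probe set, at -1.88 ± 0.54 (limma adjusted p = 0.0597) for 102830_at and -0.83 ± 0.31 (adjusted p = 0.145) for 102831_s_at. Cre Mlo replicate 3 stood above the rest, with 174 units against 28 to 54.9 on the other 3 arrays for 102830_at and 582 against 192 to 278 for 102831_s_at. Without that array both were called, at -2.43 (adjusted p = 0.00605) and -1.18 (adjusted p = 0.00772), and with all arrays and an intensity trend 102830_at was (adjusted p = 0.0494). Fcer2a, Cr2 and Cd83 on the same array (152, 4.5 and 361 units by 103040_at) stayed within the range of the other Cre Mlo arrays. These are RNA values. By flow cytometry after a longer interferon culture, the paper reports higher surface CD86 and lower CD21 staining on Cre Mlo cells. For CD23 it reports no measurable difference in protein.

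Against Cre Mhi cells of the same cultures, Cre Mlo cells were again lower for 4 of 7 probe sets and higher for none, beside 6.08% called and 2.95% called as lower among all probe sets. For 5 of 7 the groups did not overlap (13.9% of all probe sets). Fcer2a differed by -2.71 ± 0.36 (adjusted p = 0.00130), Cr2 by -2.58 ± 0.30 (adjusted p = 0.000488), Cd83 by -1.63 ± 0.26 (103040_at, adjusted p = 0.00381) and by -1.11 ± 0.21 (99434_at, adjusted p = 0.0116), each by limma. The Cr2 value is again a lower bound on the size, and with a floor of 100 units it was -0.37 and not called (adjusted p = 0.567). Cd40 differed by -0.54 ± 0.17 (adjusted p = 0.0996). Without Cre Mlo replicate 3 both Cd86 probe sets were called here too, at -1.73 (adjusted p = 0.0412) and -1.20 (adjusted p = 0.00927). Fcer2a in Cre Mhi cells was 1516, 1436, 852 and 741 units, all above the highest Cre Mlo array. In Cre Mhi against Ctrl Mhi cells none of the 7 was called by limma, and none reached an unadjusted p under 0.05, beside 0.0200% called and 7.13% under 0.05 among all probe sets. All 7 overlapped between the groups, while 3.91% of all probe sets did not. The nearest was Cd83 by 103040_at (-0.44 ± 0.26, unadjusted p = 0.120 by limma). The comparisons of Cre Mlo cells with the 2 IgM-high groups share the Cre Mlo arrays.

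Genes of related pathways were read in the same fits, each gene by its brightest probe set. Of 20 other surface markers of mature B cells, 16 were lower and 1 was higher in Cre Mlo than in Ctrl Mhi cells, with a median log2 difference of -0.92 beside -0.04 over all probe sets. Ms4a1 (CD20) differed by -5.33 (limma adjusted p = 1.19e-06), Cd22, an inhibitory receptor of the BCR, by -2.10 (2.55e-05) and Cd72, another inhibitory receptor, by -0.86 (0.000397). Of 10 partners of CD83 and CD86 in antigen presentation, 9 were lower, with a median of -1.81. H2-Eb1, a class II beta chain that is also in the marker list, differed by -2.58 (0.000397), H2-DMa, which loads class II with peptide, by -1.71 (0.000565), and Cd74, the invariant chain, by -1.80 (0.00110).

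Of 21 genes of CD40 and NF-kB signaling, 7 were higher and none lower, with a median of 0.48. Nfkbia, an inhibitor of NF-kB that NF-kB itself induces, differed by 1.25 (limma adjusted p = 0.000228), Traf6, an adaptor of CD40, by 1.44 (0.000548) and Tnfaip3, a feedback inhibitor, by 1.67 (0.00489). Among 21 regulators of Fcer2a and Cr2, Irf4 was higher (1.58, adjusted p = 0.000574), and Pou2f2, which encodes the octamer factor Oct-2, was among the 4 that were lower (-1.49, adjusted p = 0.00138). Vav1 (-1.38, adjusted p = 0.00215) was the only call among 8 genes of the CD21 co-receptor and complement, and 12 genes of costimulation gave 1 call in each direction (Il2ra 0.90, Cd48 -0.44). Markers of pro-B and pre-B cells (6 of 6 listed genes measured) summed to 60982 to 70179 units in Cre Mlo cells against 8909 to 13969 in Ctrl Mhi and 10037 to 19188 in Cre Mhi cells, and their part in the differences above was not tested. The sums of B cell identity markers were 121684 to 129700 units in Cre Mlo cells, below the 157700 to 175898 of Ctrl Mhi cells and within the 116640 to 155243 of Cre Mhi cells, and against Ctrl Mhi cells 2 of 6 were called as lower. Myeloid sums overlapped between the 3 groups. Against Cre Mhi cells 15 of the 20 mature markers and 9 of the 10 partners in antigen presentation were lower and 5 of the 21 CD40 and NF-kB genes were higher in Cre Mlo cells. In Cre Mhi against Ctrl Mhi cells no gene of the 6 lists was called by limma.

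**Figure D3:**
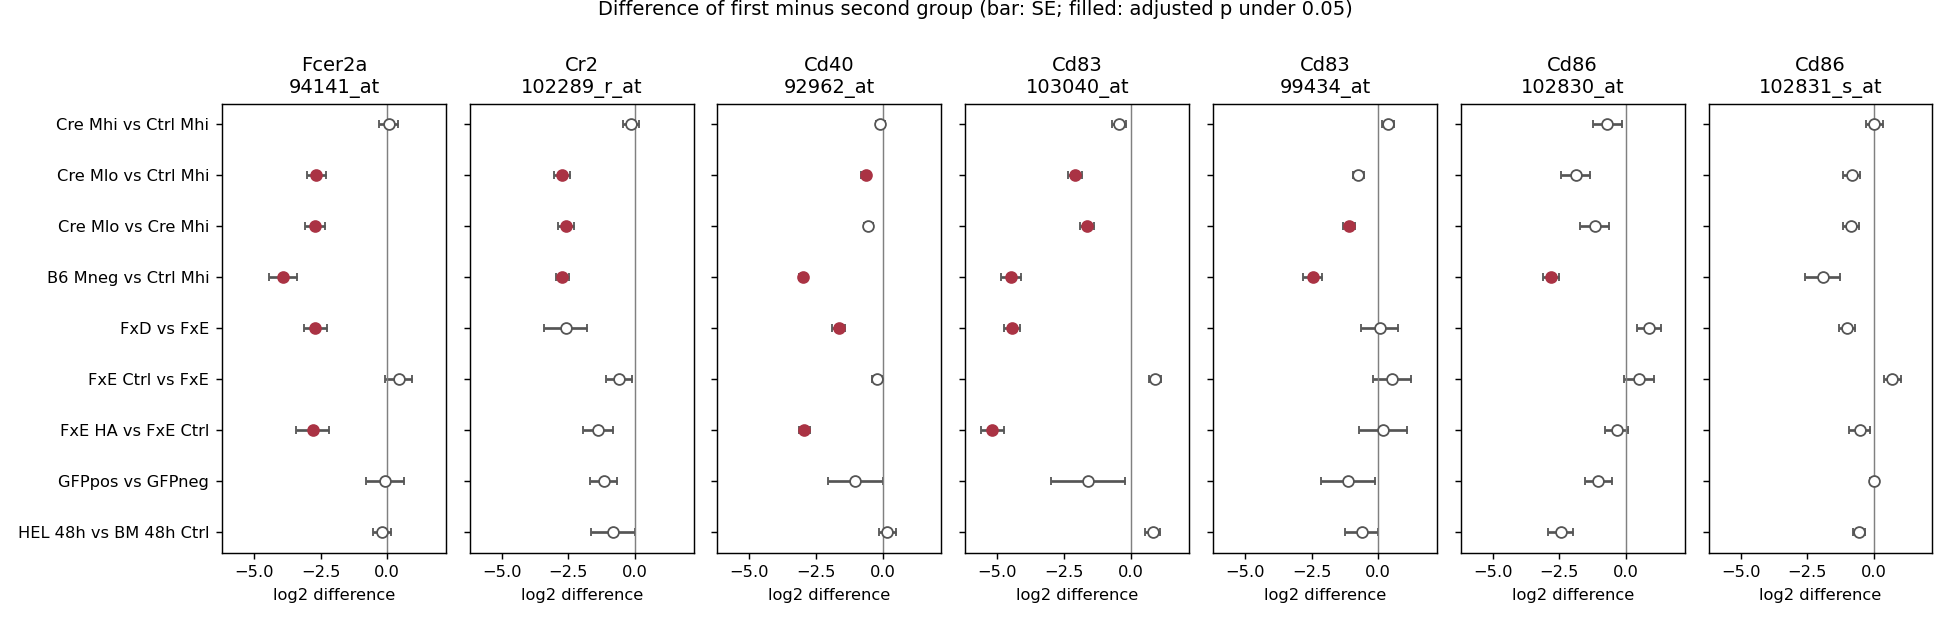
Log2 difference of the first minus the second group for each member probe set (columns) in the 9 comparisons (rows), with the SE of the limma fit as bars. Filled points passed an adjusted p of 0.05: all 20 of them lie left of 0, in the comparisons of Cre Mlo, B6 Mneg, FxD and FxE HA cells.

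The developmental step was read by FxD pre-B against FxE immature B cells, fresh from marrow, and 3 of 7 probe sets were lower in FxD cells beside 3.00% called among all probe sets (1.25% as lower). The groups did not overlap for 5 of 7, as for 20.2% of all probe sets. Cd83 by 103040_at read 208, 202 and 134 units in FxD and 3896, 4729 and 3135 in FxE cells, 21.7-fold lower (-4.44 ± 0.30, limma adjusted p = 0.00993). Cd40 read 2026, 2124 and 2901 against 7909, 6866 and 7079 (-1.65 ± 0.25, adjusted p = 0.0289), and Fcer2a 250.3, 101 and 161 against 1106, 1383 and 718 (-2.69 ± 0.43, adjusted p = 0.0322). In all 3 every FxD array lay below every FxE array. Cr2 differed by -2.61 ± 0.80 (adjusted p = 0.199), with FxD replicate 1 at 138 and the others at 12.4 and 11.6 units. Cd83 by 99434_at (0.05 ± 0.69) and Cd86 (0.87 ± 0.44 and -1.01 ± 0.30) were not called by limma.

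The calls of this comparison depended on single arrays of the 6, over all probe sets as for the members. With all arrays 299 of 9977 probe sets were called. Leaving out FxD replicate 1, 2 or 3 gave 36, 0 or 125 calls, and leaving out FxE replicate 1, 2 or 3 gave 0, 90 or 0. Without FxD replicate 1, Fcer2a and Cd40 were no longer called (adjusted p = 0.0629 and 0.0806) and Cr2 was (0.0492). Without FxD replicate 2 none was called, without FxD replicate 3 or FxE replicate 2 only Cd83 (103040_at) was, and without FxE replicate 1 or FxE replicate 3 none was. Over these 6 fits the differences stayed between -2.36 and -3.01 for Fcer2a, -1.55 and -1.81 for Cd40 and -4.24 and -4.59 for Cd83. The myeloid sums of FxD and FxE arrays overlapped, as given above. With the myeloid sum as a covariate the differences were -2.30 for Fcer2a, -1.61 for Cd40 and -4.36 for Cd83 and none was called (limma adjusted p = 0.146, 0.121 and 0.0606). That fit called 0 of all 9977 probe sets. Dendritic cells also express Cd83 and Cd86, and their markers (7 of 10 listed genes measured) summed to 5283 to 8039 units in FxD and 5246 to 7944 in FxE cells, and Fscn1 was their brightest gene. The sums of B cell identity markers did not overlap, at 54607 to 63689.6 units in FxD and 88564 to 108854 in FxE cells, with none of the 6 called by limma, and their part in the differences was not tested.

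Of the 20 other mature B cell markers 9 were lower and none higher in FxD cells, led by Ms4a1 (-2.80, limma adjusted p = 0.0116), Ltb (-2.57, 0.0145), Cd22 (-2.18, 0.0186) and Ly86 (-2.45, 0.0186). Of 10 partners in antigen presentation 7 were lower, led by H2-DMb1 (-4.70, 0.00993). Irf4 was the only call among the regulators (1.83, adjusted p = 0.0191), and Bcl2l1 (2.50, 0.0295) and Traf6 (1.38, 0.0444) were the calls among CD40 and NF-kB genes. Cd55, a complement regulator, was lower (-1.63, adjusted p = 0.0337), and no gene of costimulation was called.

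B6 Mneg cells, IgM-negative and cultured, were set against Ctrl Mhi cells, from which they also differ in Ig genes and culture. They may also differ in strain, which the paper does not state for the mice of Ctrl Mhi cells. Of the 7 probe sets 6 were lower, and none of the 7 overlapped between the groups, beside 14.2% called, 7.30% called as lower and 29.3% without overlap among all probe sets. Cd83 read 116, 39.1 and 45.2 units in B6 Mneg cells by 103040_at (-4.48 ± 0.39, limma adjusted p = 0.00107) and 259.6, 164 and 87 by 99434_at (-2.47 ± 0.35, adjusted p = 0.00628). Cd40 was 7.91-fold lower, at 459, 355 and 418 units (-2.98 ± 0.16, adjusted p = 0.000157). Fcer2a, at 72.1, 162 and 28.9 units, differed by -3.90 ± 0.53 (adjusted p = 0.00511). Cr2 was at the floor (-2.72 ± 0.23, adjusted p = 0.000925), and its call was lost with a floor of 100 units (adjusted p = 0.251). Cd86 was lower by 102830_at (-2.81 ± 0.31, adjusted p = 0.00222), with its mean of 29.9 units in B6 Mneg cells near the floor and a difference of -1.02 (adjusted p = 0.0203) with a floor of 100 units, and was not called by 102831_s_at (-1.91 ± 0.66, adjusted p = 0.105).

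In this comparison 14 of 20 mature markers, 10 of 10 partners in antigen presentation and 10 of 21 regulators were lower, and 2 regulators (Irf4 and Klf3) were higher. The leading genes were Ms4a1 (-4.87, limma adjusted p = 8.58e-05), H2-Eb1 (-3.56, 0.000615) and Dtx1, a Notch target (-2.17, 0.00115), followed among the regulators by Spib (-1.27, 0.00170) and Pou2f2 (-1.84, 0.00182). Among CD40 and NF-kB genes 1 was higher (Birc2, 0.65, adjusted p = 0.0352) and 1 lower (Ikbkg, -0.61, adjusted p = 0.0483). Cd9 (2.32, adjusted p = 0.00141) was the only call among 12 costimulation genes, and Pik3cd (1.45, 0.00269) and Vav1 (-1.08, 0.0136) were called among the 8 co-receptor and complement genes. This comparison shares the Ctrl Mhi arrays with that of Cre Mlo cells. Markers of pro-B and pre-B cells summed to 101508 to 130103 units in B6 Mneg cells, above every Ctrl Mhi array. Those of B cell identity summed to 97696 to 123179 units, below every Ctrl Mhi array, with 3 of 6 called as lower. The part of both in these results was not tested.

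Herbimycin A was tested in FxE HA against FxE Ctrl cells with hours of culture as a factor, and 3 of 7 probe sets were lower beside 3.37% called among all probe sets (2.19% as lower). For those 3 the groups did not overlap (5.85% of all probe sets). Cd83 by 103040_at had the largest difference of the members: the 6 FxE HA arrays ran from 72.5 to 332 units with a median of 230.4, and the FxE Ctrl arrays read 5732, 8089, 8172 and 7545. It was 36.5-fold lower (-5.19 ± 0.43, limma adjusted p = 0.000320). Cd40 ran from 492 to 952 units with a median of 854 in FxE HA and read 6085, 5221, 8062 and 6291 in FxE Ctrl cells, 7.69-fold lower (-2.94 ± 0.21, adjusted p = 0.000135). For both, no treated array came near the lowest control array.

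Fcer2a ran from 58.6 to 446 units with a median of 225 in FxE HA and read 1016, 757, 3278 and 1462 in FxE Ctrl cells (-2.80 ± 0.61, limma adjusted p = 0.0404). This call was lost without FxE Ctrl replicate 1, 3 or 4 or FxE HA replicate 1, 2, 4, 5 or 6 (adjusted p = 0.0533 to 0.107), with differences of -2.27 to -3.08. By hours, the differences at 24 h (4 against 2 arrays) and 48 h (2 against 2 arrays) were -2.95 and -2.94 for Cd40, -4.98 and -5.47 for Cd83 (103040_at) and -1.53 and -4.48 for Fcer2a. Within the 24 h arrays Cd40 and Cd83 were called, and within the 48 h arrays none was, with limma adjusted p of 0.351, 0.136 and 0.368 for Cd40, Cd83 and Fcer2a. Over all 9977 probe sets, 104 were called within the 24 h arrays and 0 within the 48 h arrays. Cr2 differed by -1.40 ± 0.56 (adjusted p = 0.260). Cd83 by 99434_at (0.19 ± 0.91) and Cd86 (-0.35 ± 0.42 and -0.53 ± 0.39) were not called, and 102830_at and 99434_at were near the floor in both groups.

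All 10 partners in antigen presentation were lower in FxE HA cells, with a median of -3.67, led by H2-Eb1 (-5.60, limma adjusted p = 6.18e-07), H2-DMa (-3.70, 7.15e-06), H2-Ab1 (-3.92, 0.000159) and Cd74 (-3.64, 0.000207). Of 20 mature markers 13 were lower, with Cd72 at -3.77 (1.44e-05) and Cd52 at -2.75 (0.000135). Of 21 regulators 6 were lower, led by Irf8 (-1.52, 0.00139), Nfatc1 (-1.33, 0.00638) and Spib (-2.14, 0.0113). Among CD40 and NF-kB genes Nfkbia (-1.02, 0.0283) and Bcl3 (-2.44, 0.0395) were lower and Traf6 was higher (1.11, 0.0424). Cd55 (-1.42, 0.00362) and Vav1 (-1.13, 0.0141) were lower among the co-receptor and complement genes, and none of 12 costimulation genes was called by limma.

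Myeloid sums overlapped between FxE Ctrl and FxE HA cells, as given above. The sums of B cell identity markers did not, at 43958 to 73859 units in FxE HA and 74957 to 104758 in FxE Ctrl cells, with 2 of 6 called as lower, and their part in the results was not tested. Of the T cell list (7 of 8 listed genes measured) Cd2, which B cells also express, was higher in FxE HA cells (0.95, limma adjusted p = 0.0400). The other 6 were not called, the median of the 7 was 0.0057, and Cd3e, a defining T cell gene, had means of 101 and 108.5 units.

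Cultured FxE Ctrl cells were also set against fresh FxE cells, from which they differ in the Bcl-2 transgene and in time in culture. Whether strain and RNA amplification also differ is not given in the sources used here. None of the 7 probe sets was called by limma, beside 3.22% among all probe sets, and 1 of 7 had an unadjusted p under 0.05 (19.3% of all probe sets did). That was Cd83 by 103040_at, whose 4 cultured arrays lay above the 3 fresh ones (0.92 ± 0.24, unadjusted p = 0.00639, adjusted p = 0.0971). The arrays did not overlap for this probe set, as for 20.2% of all. It passed when probe sets with a mean under 200 units were left out (adjusted p = 0.0427) or with an intensity trend in the variance (0.0261). Cd40 differed by -0.20 ± 0.22 and Fcer2a by 0.42 ± 0.52. None of the 10 partners in antigen presentation and none of the 21 CD40 and NF-kB genes was called. Ighd (IgD, 1.91, adjusted p = 0.0316) and Itgb7 (1.62, 0.0137) were higher among the mature markers, and Spib (-2.14, 0.00867) and Pax5 (-2.57, 0.0336) were lower among the regulators. Cd55 was higher (adjusted p = 0.0316) and Cd24a was lower (-2.12, 0.00867). Of the 4 measured erythroid markers, Hba-a1 (alpha globin, -4.82, adjusted p = 0.00767) and Alas2, an enzyme of heme synthesis (-4.42, 0.00392), were also lower, and the erythroid sum was 3752 to 8992 units in FxE Ctrl against 115097 to 157231 in FxE cells. The part of this in the values above was not tested.

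In HEL-Ig cells, herbimycin A was tested in GFPpos against GFPneg cells. No member was called by limma, beside 2.59% among all probe sets, and none had an unadjusted p under 0.05 (20.9% of all probe sets did). All 7 overlapped between the groups, and 29.2% of all probe sets did not. GFPpos replicate 1 stood apart. Cd40 read 124 units on it, against 1482 and 1502 on the other GFPpos arrays and 1136, 1433 and 1441 on the GFPneg arrays. Cd83 by 103040_at read 21.5 on it against 718 and 504 (GFPneg 591, 848 and 436), and by 99434_at 63.4 against 574 and 823 (GFPneg 468, 997 and 688). On the other 2 GFPpos arrays both genes thus had values in or next to the GFPneg range.

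With all arrays Cd40 differed by -1.03 ± 1.03 (limma adjusted p = 0.640) and Cd83 by -1.60 ± 1.39 (103040_at, adjusted p = 0.584). Without GFPpos replicate 1 the differences were 0.17 for Cd40 and -0.0016 for Cd83 (adjusted p = 0.662 and 1.00). The same array had the highest sum of pro-B and pre-B markers, 145066 units, against 65658 and 67702 on the other GFPpos arrays and 9681 to 13443 on the GFPneg arrays. It correlated with the other arrays of its group at a mean r of 0.941, beside 0.949 and 0.947 for those. The sums of B cell identity markers were 113109 to 116271 units in GFPpos and 127718 to 128681 in GFPneg cells, without overlap and with none of the 6 called by limma. The part of these features in its Cd40 and Cd83 values was not tested.

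Fcer2a was near the floor in both groups, at 223, 66.2 and 133 units in GFPneg and 89.7, 282 and 65.4 in GFPpos cells (-0.08 ± 0.70). Cr2 was under 20 units on the 3 GFPpos arrays and read 61.7, 5.8 and 74.7 in GFPneg cells. Cd86 by 102831_s_at read 346 to 389.5 in GFPpos and 348 to 384 in GFPneg cells (-0.0021 ± 0.13). Of the partners in antigen presentation 5 of 10 were lower, led by H2-DMb1 (-3.08, limma adjusted p = 0.0230), H2-Ab1 (-3.47, 0.0238), H2-Eb1 (-3.93, 0.0400) and H2-DMb2 (-3.46, 0.0424), and the median of the 10 was -2.59. Ly86 (-1.36, 0.0294), H2-Eb1 and Pirb (-1.47, 0.0481) were lower and Ccr7 was higher (1.06, 0.0481) among the mature markers. Traf6 (2.48, 0.00758), Bcl2l1 (0.97, 0.0428) and the regulator Irf4 (2.03, 0.0185) were higher, and the regulators Egr1 (-1.57, 0.0424) and Nfatc1 (-0.91, 0.0428) and the co-receptor adaptor Vav1 (-1.10, 0.0412) were lower.

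**Figure D4:**
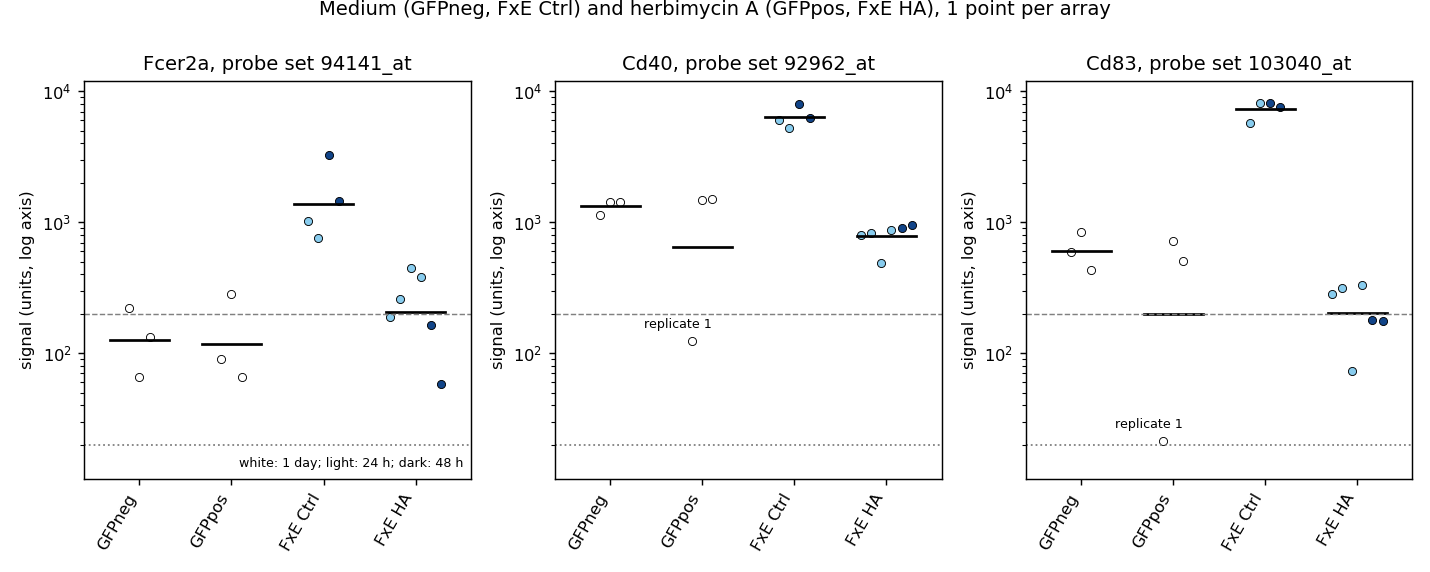
Signal of Fcer2a, Cd40 and Cd83 (103040_at) on each array of medium (GFPneg, FxE Ctrl) and herbimycin A (GFPpos, FxE HA) groups, on a log axis, with bars at the mean of log2 signal and shading by hours of culture. All FxE HA arrays lie below all FxE Ctrl arrays, whereas for Cd40 and Cd83 only GFPpos replicate 1 lies below the GFPneg arrays.

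The herbimycin A effects in HEL-Ig and in FxE cells were compared in 1 fit, without hours of culture as a factor. Over all arrays no member differed between them after adjustment (0.371% of all probe sets did), although Fcer2a (2.65 ± 0.96), Cd40 (1.97 ± 0.86) and Cd83 by 103040_at (3.57 ± 1.22) had unadjusted p of 0.0151, 0.0366 and 0.0104 by limma. Without GFPpos replicate 1 Cd40 (3.17, adjusted p = 0.00215) and Cd83 (5.18, adjusted p = 0.00342) were called, and with a floor of 100 units Cd83 was (4.24, adjusted p = 0.0219). With only the 24 h FxE arrays, which match the 1 day of the HEL-Ig cultures, none was called (Cd40 1.92, adjusted p = 0.567, and Cd83 3.38, adjusted p = 0.466). The mice, the transgenes and the sort gates differ between these 2 effects and cannot be told apart.

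The effect of receptor loss (Cre Mlo minus Ctrl Mhi) was compared with that of herbimycin A in HEL-Ig cells in the same manner. No member was called, beside 0.381% among all probe sets. Fcer2a (-2.57 ± 0.77, unadjusted p = 0.00616 by limma) and Cr2 (-1.55 ± 0.52, unadjusted p = 0.0116) came nearest, with adjusted p of 0.194 and 0.244, and the Cr2 value is bounded by the floor.

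Antigen exposure was read on U74A arrays by HEL 48h against BM 48h Ctrl cells. None of the 7 members was called by limma, beside 0.230% of 12588 probe sets, and 3 of 7 had an unadjusted p under 0.05 (11.6% of all probe sets did). Those 3 did not overlap between the groups, as did 20.6% of all probe sets. Cd86 by 102830_at read 43.0, 48.3 and 41.4 units with HEL and 401, 302 and 116 without (-2.45 ± 0.48, unadjusted p = 0.00201, adjusted p = 0.138). By 102831_s_at it read 432, 459.9 and 502 against 784, 756 and 547 (-0.57 ± 0.23, adjusted p = 0.426). Cd83 by 103040_at lay the other way, at 5233, 3758 and 5397 units with HEL and 2492, 3458 and 2184 without (0.83 ± 0.27, adjusted p = 0.338).

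Replicates 1 and 2 of both groups were scanned on 1 day and replicate 3 on another. Within these days the differences were -2.93 and -1.49 for Cd86 by 102830_at, and 0.60 and 1.30 for Cd83 by 103040_at. Cd40, at 2489.7 to 4317 against 2283 to 3648 units, and Fcer2a, at 659.6 to 802 against 608 to 1322, overlapped (0.18 ± 0.31 and -0.18 ± 0.33). Cr2 was near the floor in both groups. Markers of pro-B and pre-B cells summed to 34885 to 39898 units in HEL 48h and 3074 to 9301 in BM 48h Ctrl cells. Those of B cell identity summed to 96988 to 167000 against 181443 to 196146, and the part of both in these values was not tested. Cd83 by 99434_at read 464 on HEL 48h replicate 1 and 1603 or more on the other 5 arrays.

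None of the 10 partners in antigen presentation was called by limma in this comparison, and their median was -1.77 beside -0.11 over all probe sets. Ms4a1 was the only call among the 20 mature markers (-2.60, limma adjusted p = 0.0380), and no gene of the other 4 lists was called, with Traf6 nearest (1.94, 0.0519).

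HEL Mhi cells, taken directly from the IL-7 culture, are set beside these without a test, because their arrays were scaled apart: over the probe sets shared with U74Av2 the trimmed mean was 1486 to 1489 in HEL Mhi and 1812 to 1844 in the other 2 groups. Cd83 by 103040_at read 42.8, 116 and 199 units in HEL Mhi cells, Fcer2a 59.7, 77.8 and 141, and Cd40 1054, 1229.7 and 988. All of these lie below the lowest BM 48h Ctrl array for the same probe set. Cd86 by 102831_s_at, at 490.1, 577 and 731 units, overlapped with BM 48h Ctrl cells. HEL Mlo cells, on their own scale, read 17.3 to 31.4 units for Cd40 and 1.78, 22.1 and 5.70 for Fcer2a, and 21.8 units or fewer on every array for the other 5 probe sets.

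**Figure D5:**
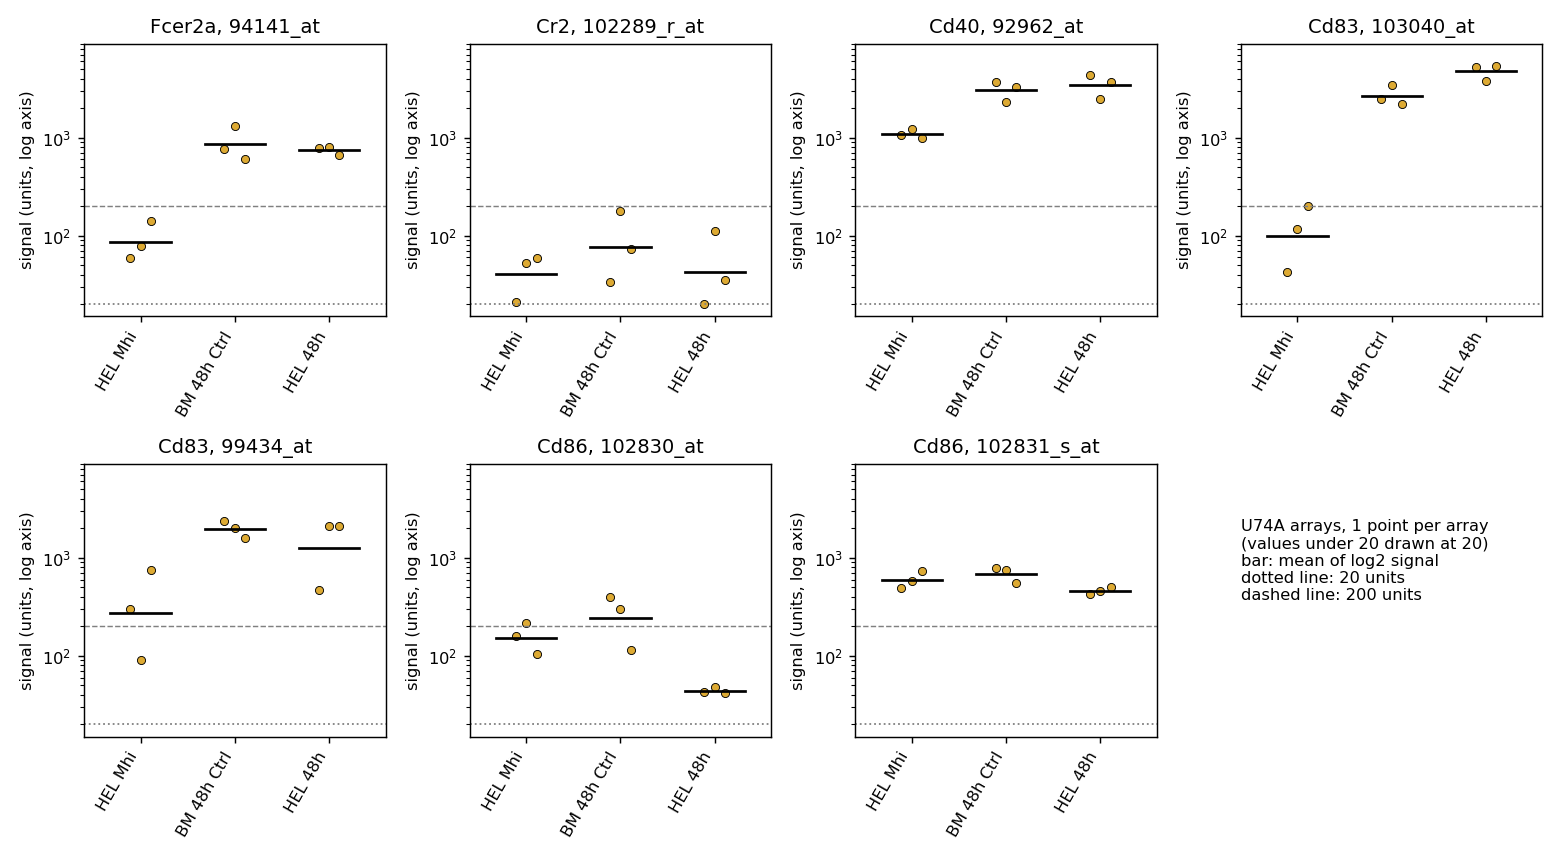
Signal of each member probe set on the U74A arrays of HEL Mhi, BM 48h Ctrl and HEL 48h cells, on a log axis, 1 point per array with bars at the mean of log2 signal. Fcer2a, Cd40 and Cd83 (103040_at) are lower in HEL Mhi cells than in both 48 h groups, and Cd86 (102830_at) is lowest in HEL 48h cells.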

How the data were processed

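RNA was amplified, labelled and hybridised by the authors to Affymetrix U74Av2 (37) or U74A (12) arrays. The deposited values are MAS5 signal intensities per probe set on a linear scale, 1 table per platform, scaled by the authors to a trimmed mean of about 1500 units, except for HEL Mlo arrays. U74A values of HEL 48h and BM 48h Ctrl cells were scaled over all probe sets. Levels are thus relative to the rest of the transcriptome, the lowest intensities are mostly noise, and the number of arrays limits the precision. Genes came from the platform annotation, updated to GRCm38.p6: of the U74Av2 probe sets, 8724 had 1 gene, 346 several and 907 none, and of the U74A probe sets 10276, 363 and 1949. The promoter table listed 2 of the 5 genes. The Cr2 window lies in part inside the annotated gene, so only the 89 bases before it are printed.

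Signals were raised to at least 20, log2-transformed and tested with limma 3.58.1 in R 4.3.3 (lmFit, eBayes, two-sided, Benjamini-Hochberg adjustment over the whole table, called under 0.05), with one fit per comparison; Ctrl Mhi, Cre Mhi and Cre Mlo arrays shared a fit, and FxE HA against FxE Ctrl had hours as a factor, taken from a figure legend of the study. Labels describe separate sorts for the replicates, but where this is not stated p-values measure only the spread between arrays. Named genes were the 5 members, up to 4 genes per list and comparison with the smallest adjusted p, and the 5 probe sets most like each member probe set. The members, lists and tests were chosen with earlier results of these data known. The study's methods used an unequal-variance test on linear signals with a 2-fold change, a difference over 200 units and p under 0.01, or 0.05 for FxD against FxE; it was run as an alternative, called the methods' t-test, beside other floors, quantile normalization, a filter, an intensity trend, a replicate block and leaving out each array. Replicate numbers were taken to pair samples where deviations from group means, over probe sets whose mean was 500 units or higher, correlated above 0.1 in every pair: Cre Mlo with Cre Mhi (0.177 to 0.474) and HEL 48h with BM 48h Ctrl (0.111 to 0.239). Over all probe sets neither did (0.0112 to 0.166 and 0.0334 to 0.0926). The replicate block changed no member's call in these 2 comparisons.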

Additional observations from a re-analysis of the deposited data

Results flagged for a closer look

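Of 35 sets of 4 or 6 arrays of a group examined for a sample far from the rest, 1 stood out, and chance alone gives about 1 in 20. Cd40 read 492.3 units on FxE HA replicate 3, against 797 to 952.1 on the other 5 FxE HA arrays. On that array Cd83 by 103040_at, at 72.5 units, was also the lowest of the group, and by 99434_at, at 672.5 units, the highest. The Cd40 difference between FxE HA and FxE Ctrl cells was called with and without it.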

How the results depend on the processing

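Of 191 recomputed counts of called members, 170 stayed within 1.5 times the reported count. No called difference changed sign. With the methods' t-test the count went from 4 to 2 for Cre Mlo against Ctrl Mhi and from 4 to 0 against Cre Mhi. After Benjamini-Hochberg adjustment of that test, its limits of 0.01, or 0.05 for FxD against FxE, were applied to the adjusted p. The count was then 1 and 0 for these comparisons. It was 0 for FxD against FxE and for FxE HA against FxE Ctrl (3 each as reported), and 1 for B6 Mneg cells (6 as reported). Over all 9977 probe sets that rule called 29 and 21 for Cre Mlo, 1 for FxD, 26 for FxE HA and 44 for B6 Mneg cells. With a replicate block, where the numbers do not pair the samples, the count of members was 0 for FxD against FxE, 3 for B6 Mneg cells and 0 for FxE HA against FxE Ctrl. That block left 0, 137 and 0 calls over all 9977 probe sets. Chosen after seeing the data, the myeloid covariate gave 0 for FxD against FxE and the 48 h arrays alone gave 0 for FxE HA against FxE Ctrl. Both of those fits also called 0 of all 9977 probe sets. For FxE Ctrl against FxE the count of 0 became 1 with the filter on mean signal and with an intensity trend, and the difference between herbimycin A effects gave 1 with a floor of 100 units. Leaving out each array in turn gave 3 to 5 calls for Cre Mlo against Ctrl Mhi, 4 to 6 against Cre Mhi, 0 to 2 for FxD against FxE, 6 to 6 for B6 Mneg cells, 2 to 3 for FxE HA against FxE Ctrl and 0 to 2 for the difference between herbimycin A effects. The count of 0 held under 20 of 20 alternatives for Cre Mhi against Ctrl Mhi, 14 of 14 for GFPpos against GFPneg, 16 of 16 for HEL 48h against BM 48h Ctrl and 16 of 16 for receptor loss against herbimycin A, the methods' t-test included where it was run. The cause of these shifts was not tested. Over single probe sets, 1216 of 1316 recomputed values kept their call, 81 lost it and 19 gained it. Counts over all probe sets moved by more than 1.5 times in every comparison: 831 (29 to 1097) and 607 (21 to 799) for Cre Mlo, 2 (0 to 5) for Cre Mhi, 299 (0 to 515) for FxD, 1417 (44 to 1813) for B6 Mneg, 258 (0 to 736) for GFPpos, 336 (0 to 567) for FxE HA, 321 (0 to 675) for FxE Ctrl, 29 (0 to 152) for HEL 48h, and 37 (21 to 160) and 38 (18 to 109) for the differences between effects. Signals near the floor limit Cr2 and Cd86 by 102830_at.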
